A study of Sus scrofa with 2 samples.

Results

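Potassium channel genes were taken as every gene whose symbol in the deposited annotation begins with KCN and that had at least 10 UMIs (unique molecular identifiers, by which each captured transcript is counted once) over 2 single-nucleus RNA libraries of pig kidney cortex. Of 87 such genes among the 31908 genes of the files, 69 met the minimum and 18 did not, and 6 of those 18 had no UMI. At the border, KCNK17 with 9 UMIs was left out, and KCNA4 with 11 and KCNN4 with 12 were the members with the fewest. The members took 0.224% of the UMIs of the unperfused library (76947 UMIs) and 0.229% of those of the perfused library (81332 UMIs).

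Kidneys came from slaughtered pigs, were flushed, and were stored at 4 °C for about 2 h. The unperfused cortex was taken before perfusion, and the perfused cortex once a kidney had been perfused ex vivo for 120 min at 37 °C and 100 mmHg, a pressure above the normal range, without albumin or red blood cells in the perfusate. Whether both pieces came from 1 animal, and the age and strain of the pigs, are not given in the sources used here. Each condition is a single library, so the perfusion, the kidney and the library cannot be told apart, no test was possible, and every interval below is an exact 95% interval that covers counting error only.

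Potassium channels let potassium leave or enter cells and set the membrane voltage. In the kidney they return potassium across the basolateral membrane of tubule cells, so that the sodium pump can keep turning, and secrete potassium into the urine from the thick ascending limb and the distal nephron. Outside the tubule they set the tone of arterioles and the resting voltage of endothelial and immune cells.

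After filtering, 6389 unperfused and 5421 perfused nuclei fell into 20 clusters, and 16 clusters were given the names of 12 classes from marker lists. Of the tubule, these were PT (proximal tubule) and injured PT, LOH (Henle's loop), DCT (distal convoluted tubule), PC (principal cells), and the intercalated types IC-A and IC-B. The remaining classes were PODO (podocytes), EC (endothelium), STROMA (stroma), IMM (immune cells) and a cycling class. No potassium channel gene was used to form the clusters. The name injured PT rested on 3 markers, none of them among the 10 leading genes of the cluster (AGMO, RIMS2 and MEGF6 led it). IMM was mixed, since 1 of its 7 subclusters took the name STROMA and another the name EC. Clusters 5, 10, 13 and 16 had no name, and their leading genes included SLC8A1, ATP12A, CALB1 and SCNN1G in cluster 5, SLC5A8, NRG3 and POU2F3 in cluster 10, DPP10 and SLIT3 in cluster 13, and GALNT14 and EPHA7 in cluster 16. Median UMIs per nucleus were higher in the perfused library in every class, for example 5294 and 6623 in PT. The 2 libraries shared 14 barcodes.

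Levels are given as CPM, the UMIs of a gene per 1000000 UMIs of its class in a library. They are compared for 1 gene between classes or libraries, and not between genes, whose lengths differ. Of the 69 members, 20 had at least 1000 UMIs, 30 had at least 100 but fewer than 1000, and 19 had under 100, and the 5 most abundant (KCNJ16, KCNJ15, KCNQ1, KCND3 and KCNK5) held 65.05% of the members' UMIs. Among named classes, each family had its highest summed level in a different one, apart from the 2-pore domain channels, which shared IC-A with the calcium-activated channels. Unnamed clusters were not summed, and KCNJ16 alone was above the PT sum of its family in cluster 10. Over both libraries, the 13 inward rectifiers summed to 1677 CPM in PT, the 26 voltage-gated channels to 2498 CPM in STROMA and the 11 calcium- or sodium-activated channels to 1466 CPM in IC-A. The 9 2-pore domain channels summed to 438 CPM in IC-A and 332 CPM in PT, and the 9 auxiliary subunits to 1255 CPM in PODO. Most of each sum came from few members, so it does not describe the family as a whole. KCNMA1 had 1435 CPM and KCNK1 419 CPM in IC-A, KCNIP4 1099 CPM in PODO and KCND3 1783 CPM in STROMA. In PT, KCNJ16 had 857 CPM, KCNJ15 728 CPM and KCNK5 322 CPM. All members together were lowest in EC, at 919 CPM before and 874 CPM after perfusion, and STROMA (3772 and 3360 CPM) and IC-A (3270 and 3430 CPM) were the highest named classes.

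A leading class was defined as one with at least 3 times the CPM of the next named class and at least 50 UMIs of the gene. It was found for 9 of the 36 members with enough UMIs, or 25.0%, against 10.7% of all genes with enough UMIs. They included KCNMA1 and KCNJ3 in IC-A, KCNK2 in IC-B, KCNC2 and KCNG1 in LOH, KCNIP4 in PODO, KCNU1 in PT and KCNA3 in IMM. All 9 had the same highest named class in each library, as did 31 of the 36. Unnamed clusters were left out of the rule. Over both libraries KCNJ3 had 80.2 CPM in cluster 16 against 220 CPM in IC-A. KCNU1 had 26.4 CPM in cluster 10 against 64.4 CPM in PT, and KCNC2 21.1 CPM in cluster 13 against 50.6 CPM in LOH. Each of these leads was under 3 times the unnamed cluster.

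**Figure D1:**
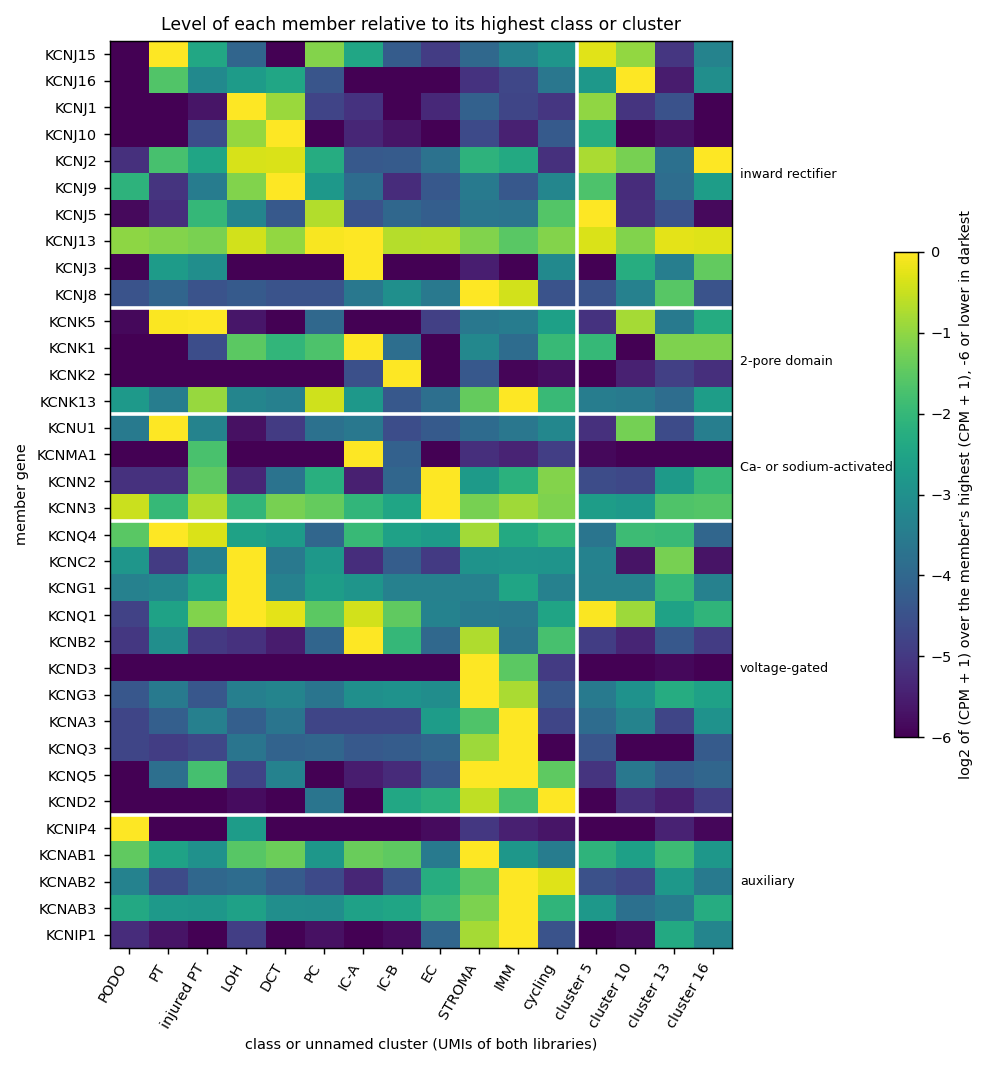
Levels of 34 of the members with at least 50 UMIs in their highest named class (rows, by family) across the 12 named classes and 4 unnamed clusters (columns), as log2 of CPM + 1 over the highest CPM + 1 of the same gene, both libraries together. The brightest yellow marks the highest class or cluster of each gene and the darkest colour a log2 of -6 or lower. KCNJ13 is light green to yellow in every column, and KCNMA1, KCNK2, KCND3 and KCNIP4 are yellow in 1 column and dark in most others.

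The inward rectifiers of the tubule divided by segment. KCNJ16, a basolateral subunit that pairs with KCNJ10 or KCNJ15, had 817 and 906 CPM in unperfused and perfused PT. It had 478 and 493 CPM in DCT and 380 and 421 CPM in LOH. KCNJ16 was thus highest in PT among named classes, and the small cluster 10 stood well above PT, at 2143 CPM (965 UMIs in 72 nuclei) and 2807 CPM (3636 UMIs in 178 nuclei). In IC-A, KCNJ16 had 22.0 and 34.8 CPM, and in PODO 18.9 and 13.4 CPM.

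KCNJ15, a proximal tubule partner of KCNJ16, had 777 and 668 CPM in PT, 409 and 268 CPM in PC, and 576 and 653 CPM in cluster 5. In DCT, where KCNJ16 was high, KCNJ15 had 12.4 CPM (19 UMIs) and 5.22 CPM (6 UMIs). KCNJ10, the basolateral channel of the distal convoluted tubule, showed another order of classes. It had 138 and 137 CPM in DCT and 78.1 and 66.5 CPM in LOH, but 0.395 CPM (4 UMIs) and 0.969 CPM (8 UMIs) in PT. Among named classes, the 2 partners of KCNJ16 thus had different highest classes in both libraries, PT for KCNJ15 and DCT for KCNJ10. They were not separate everywhere. A KCNJ15 UMI was present in 14.7% and 13.4% of LOH nuclei, and a KCNJ10 UMI in 21.4% and 21.0%. KCNJ10 had 28.1 CPM in cluster 5 over both libraries. KCNJ15 was also found in 35.5% and 42.5% of IC-A nuclei.

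KCNJ1 (ROMK), the secretory channel of the apical membrane, had 163 and 109 CPM in LOH, 85.1 and 47.0 CPM in DCT, and 83.4 and 35.9 CPM in cluster 5. Its level was lower in the perfused library in each of the 3, with intervals that did not overlap. In PC, where ROMK is known to secrete potassium, KCNJ1 had 6 UMIs (8.12 CPM) in 176 unperfused nuclei and none in 151 perfused nuclei. In perfused PC, 3 UMIs would be 3.66 CPM. Of the LOH clusters, cluster 2, led by SLC12A1, and cluster 15, with CLDN16 among its leading genes, had similar KCNJ1 levels over both libraries (133 CPM, interval 125 to 142, and 111 CPM, interval 92.5 to 133). For KCNJ10 they differed, at 60.4 CPM (54.9 to 66.4) in cluster 2 and 140 CPM (119 to 164) in cluster 15.

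The G-protein-gated rectifiers KCNJ3, KCNJ5 and KCNJ9 had different highest named classes, and of these genes only KCNJ3 met the rule for a leading class. KCNJ3 had 195 CPM (292 UMIs) and 259 CPM (260 UMIs) in IC-A, 6.66 times the PT level over both libraries. The unnamed cluster 16 had 80.2 CPM of KCNJ3 over both libraries. KCNJ5 had 57.1 and 56.3 CPM in cluster 5, and 55.5 and 15.9 CPM in PC. KCNJ9 had 43.2 and 28.7 CPM in DCT and 25.0 and 10.51 CPM in LOH. KCNJ9 and KCNJ10 are neighbouring genes in the RefSeq annotation of the Sscrofa11.1 assembly, and both had DCT first, LOH second and cluster 5 next (KCNJ9 36.98, 16.3 and 10.9 CPM and KCNJ10 137, 71.2 and 28.1 CPM over both libraries). KCNJ1 and KCNJ5 are neighbours as well, with different highest classes.

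KCNJ8, the pore of the vascular channel that opens when ATP is low, had 19.1 and 21.9 CPM in STROMA and 1 and 3 UMIs in EC. Over both libraries IMM was next, at 15.6 CPM against 20.9 CPM in STROMA. ABCC9, the regulatory subunit that pairs with KCNJ8 in smooth muscle, had 5 and 14 UMIs in STROMA. KCNJ2 was similar in DCT (22.9 and 34.0 CPM) and LOH (21.4 and 30.5 CPM). KCNJ13 was the flattest abundant member, from 32.9 CPM in IMM to 97.9 CPM in IC-A over both libraries, a ratio of 2.98. In the same RefSeq table KCNJ13 overlaps GIGYF2, which ranged from 107 to 273 CPM, a ratio of 2.56. The counts of KCNJ13 are uncertain for that overlap.

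The 2-pore domain channels, which carry background currents, were found in 3 patterns. KCNK5, an alkali-activated channel tied to bicarbonate transport in the proximal tubule, had 314 and 331 CPM in PT and 315 and 337 CPM in injured PT, against 6.03 and 5.26 CPM in LOH. Its levels in PT and injured PT were within each other's intervals in both libraries. KCNK1 had 385 and 470 CPM in IC-A, 119 and 164 CPM in LOH and 123 and 136 CPM in PC, against 3.26 and 2.91 CPM in PT.

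KCNK2, a channel opened by membrane stretch, had the largest gap of any of the 9 members with a leading class. It had 295 CPM (199 UMIs) in unperfused and 108 CPM (52 UMIs) in perfused IC-B, 22.2 times the STROMA level over both libraries. A UMI of KCNK2 was present in 51.8% and 43.3% of IC-B nuclei and in 3.68% and 2.99% of IC-A nuclei, at median depths of 5654 and 7544 UMIs in IC-B and 4801 and 6639 in IC-A. KCNK13, known from macrophages and microglia, had 33.8 and 37.7 CPM in IMM. Within IMM it had 98.9 and 285 CPM in the macrophage subcluster, on 7 and 30 UMIs. KCNK3 had 10 and 20 UMIs in STROMA.

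Of the calcium- and sodium-activated channels, KCNMA1, the pore of the large-conductance (BK) channel, marked the intercalated cells of type A. It had 1336 CPM (2000 UMIs) in unperfused and 1583 CPM (1592 UMIs) in perfused IC-A. The next named class was injured PT at 418 and 444 CPM, and IC-B had 89.0 and 68.4 CPM. A UMI of KCNMA1 was present in 85.6% and 82.1% of IC-A nuclei, and in 1.14% and 1.32% of PC nuclei, at median depths of 4801 and 6639 UMIs in IC-A and 3757.5 and 5383 in PC. PC nuclei, which share the collecting duct with IC-A, had 3 and 2 UMIs (4.06 and 2.44 CPM), a level at or near that of 3 UMIs. The BK beta subunits were sparse. KCNMB4 had 28 and 21 UMIs in EC, and KCNMB3 had 29 and 16 UMIs in DCT. KCNMB1, which overlaps KCNIP1 in the RefSeq table, had 14 and 16 UMIs in STROMA and 18 and 7 UMIs in IMM.

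KCNN2 and KCNN3 are small-conductance channels, of which KCNN3 is known from endothelial relaxation. Both had their highest levels over both libraries in EC. KCNN2 had 299 and 323 CPM in EC (790 and 665 UMIs) and 117 and 104 CPM in injured PT. The small cycling class was next for KCNN2 over both libraries, at 143 CPM against 309 CPM in EC. KCNN3 had 52.2 and 42.75 CPM in EC. Its lead was small, at 48.1 CPM in EC against 34.0 CPM in PODO over both libraries. In the perfused library alone the 16 cycling nuclei had 50.5 CPM of KCNN3, on 6 UMIs in 1 nucleus. KCNU1, a channel known from sperm, had 58.9 CPM (596 UMIs) and 71.2 CPM (588 UMIs) in PT and 0 and 2 UMIs in LOH. Within PT it had 99.2 and 135 CPM in cluster 3, led by ADCY8 and SLC22A2, and 40.0 and 42.8 CPM in cluster 1, led by SLC7A8 and SLC5A12. KCNJ16 went the same way between these PT clusters (1060 and 1331 CPM in cluster 3, 703.5 and 717 CPM in cluster 1), and KCNJ3 the other way (18.0 and 13.4 CPM in cluster 3, 42.2 and 39.3 CPM in cluster 1).

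KCNQ1 was the most widespread voltage-gated member of the tubule. It had 629 and 720 CPM in LOH, 514 and 655 CPM in DCT, 552 and 463 CPM in IC-A and 620.5 and 739 CPM in cluster 5. PT had 122 and 110.4 CPM. KCNE3, a subunit that can bind KCNQ1, had 26 and 16 UMIs in EC. KCNC2, a fast-deactivating pore, had 50.7 and 50.5 CPM in LOH. KCNG1, a subunit that forms no channel by itself, had 26 and 51 UMIs in LOH.

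Outside the tubule, KCNA3, the potassium channel of T lymphocytes, had 28.2 and 25.3 CPM in IMM (15 and 45 UMIs) and 4.785 and 9.02 CPM in STROMA. It had 6 and 9 UMIs (99.4 and 48.0 CPM) in IMM subcluster 4, which was unnamed and led by CLNK, WDFY4 and FLT3, and 4 and 6 UMIs (53.3 and 26.7 CPM) in the T lymphocyte subcluster, counts too low to order the subclusters. KCNQ5 had 520 and 427 CPM in the T lymphocyte subcluster (39 and 96 UMIs). KCNQ3 had 269 and 408 CPM in the macrophage subcluster (19 and 43 UMIs), against 26.65 and 53.3 CPM in the T lymphocyte subcluster.

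The auxiliary subunit KCNIP4, a calcium-binding partner of the Kv4-type channels, was the member of the podocytes. It had 1180 CPM (499 UMIs) in 89 unperfused and 945 CPM (211 UMIs) in 30 perfused PODO nuclei, 6.51 times LOH over both libraries. In LOH it had 124 and 199 CPM, and in PT 7.41 and 4.97 CPM. The Kv4-type pores KCND2 and KCND3, which KCNIP4 binds, were not high in PODO, where KCND3 had 7 UMIs in each library.

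**Figure D2:**
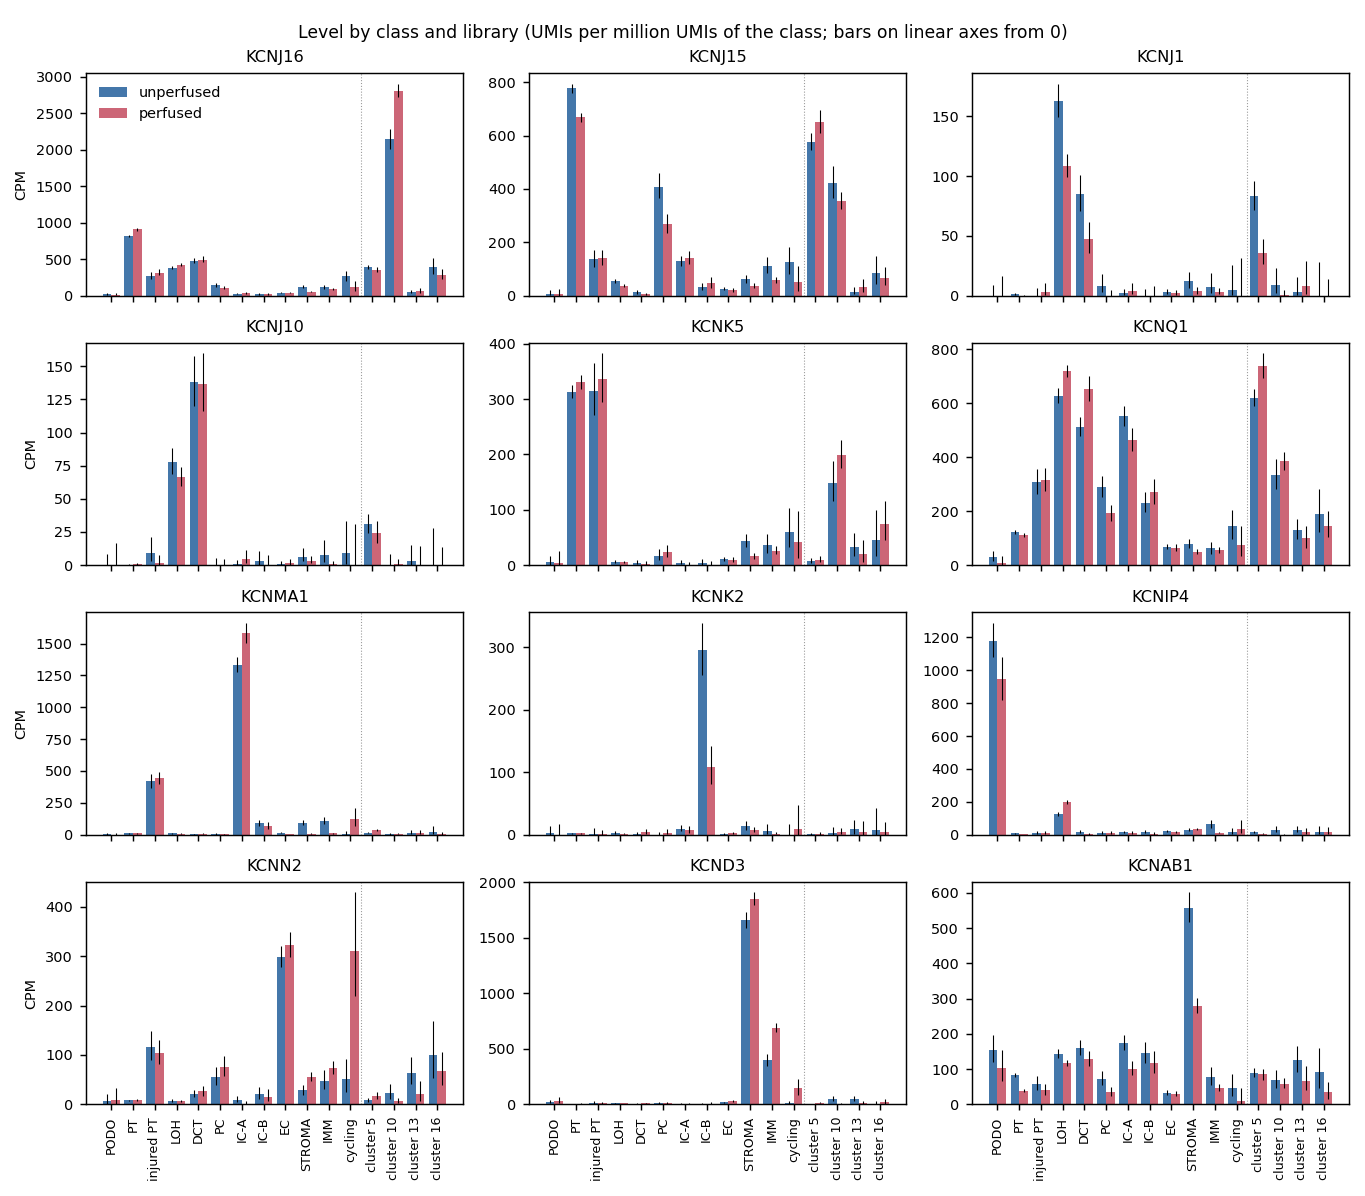
Level in CPM (linear axes from 0) of 12 members in each class and unnamed cluster, unperfused in blue and perfused in red, with exact 95% Poisson intervals as lines. KCNMA1 stands at 1336 and 1583 CPM in IC-A, KCNIP4 at 1180 and 945 CPM in PODO and KCND3 at 1656 and 1851 CPM in STROMA. KCNK2 in IC-B, at 295 and 108 CPM, and KCNAB1 in STROMA, at 558 and 279 CPM, are higher in the unperfused library.

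STROMA had the widest set of voltage-gated channels. KCND3, the pore of a fast transient outward current, had 1656 CPM unperfused (2077 UMIs) and 1851 CPM perfused (4312 UMIs). The next named class was IMM, at 622 CPM over both libraries, with a KCND3 UMI in 28.6% and 43.1% of its nuclei. Within STROMA, KCND3 came from cluster 6, led by KCND3 itself and ZFPM2, at 2092 and 2282 CPM. Cluster 11, led by ANO3 and MYH11, had only 22.7 and 72.6 CPM. KCNAB1, a beta subunit that speeds the closing of Kv1-type channels, had the opposite distribution, with 142 and 108 CPM in cluster 6 and 2117 and 986 CPM in cluster 11.

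Clustering STROMA again gave 10 subclusters, which divided the voltage-gated members further. Subcluster 3 (57 and 56 nuclei) was led by KCNB2, with MYH11 and CNN1, genes of smooth muscle cells, among its leading genes, and KCNB2 had no part in forming it. KCNAB1 had 4076 CPM (550 UMIs) and 2096 CPM (419 UMIs) there. KCNB2 had 874 CPM (118 UMIs) and 1156 CPM (231 UMIs), and KCNQ5, a channel of vascular smooth muscle, had 1141 CPM (154 UMIs) and 710.4 CPM (142 UMIs). By class over both libraries, KCNB2 was highest in IC-A, at 184 CPM against 112 CPM in STROMA. KCND3, the leading gene of cluster 6, had 2 and 20 UMIs (14.8 and 100.1 CPM) in subcluster 3, far below its level in the class.

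The Kv4-type pores filled other subclusters. In subcluster 4 (31 and 71 nuclei), led by KCND2, APOB and TNC, KCND3 had 4022 and 4880 CPM and KCND2 had 2178 and 2034 CPM. In subcluster 1 (86 and 125 nuclei), led by ART4 and LRRC36, KCND3 had 3089 and 3886 CPM and KCND2 had 19.4 and 105 CPM. KCNIP1, another calcium-binding partner of these pores, had 138 UMIs (2026 CPM) in the 25 unperfused nuclei of subcluster 7, the fibroblast subcluster, all in 8 nuclei. The perfused library had 2 nuclei in that subcluster and no KCNIP1 UMI.

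**Figure D3:**
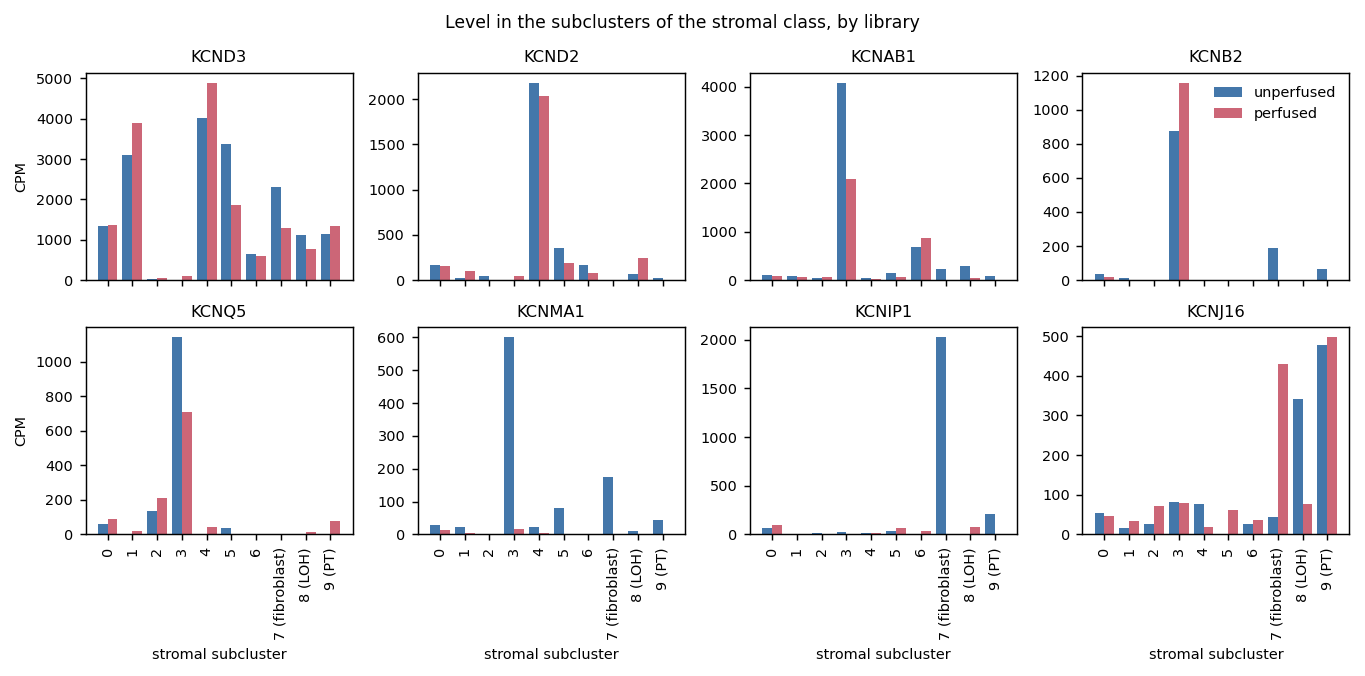
Level in CPM (linear axes from 0) of 8 members in the 10 subclusters of STROMA, unperfused in blue and perfused in red, without intervals. KCNAB1, KCNB2, KCNQ5 and KCNMA1 peak in subcluster 3, KCND2 in subcluster 4 and KCNIP1 in subcluster 7. The subclusters named fibroblast, LOH and PT hold 2, 7 and 4 perfused nuclei, so their red bars rest on few UMIs.

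The perfused library was compared with the unperfused one within each named class. A member was called higher or lower in a class when it had at least 20 UMIs there, a difference of at least 2-fold and an interval of the log2 ratio without 0. Of 245 pairs of a member and a named class with enough UMIs, 14 were called higher and 32 lower in the perfused library, and 29 members were called in some class. That is 5.71% and 13.1% of the pairs, against 2.03% and 5.89% over all genes. The median log2 ratio was -0.17 for the members and -0.07 for all genes. By family, the inward rectifiers had 1 pair called higher and 8 lower of 52, the voltage-gated channels 4 and 7 of 69, the auxiliary subunits 4 and 8 of 44, the calcium- or sodium-activated channels 1 and 5 of 40 and the 2-pore domain channels 4 and 3 of 34.

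**Figure D4:**
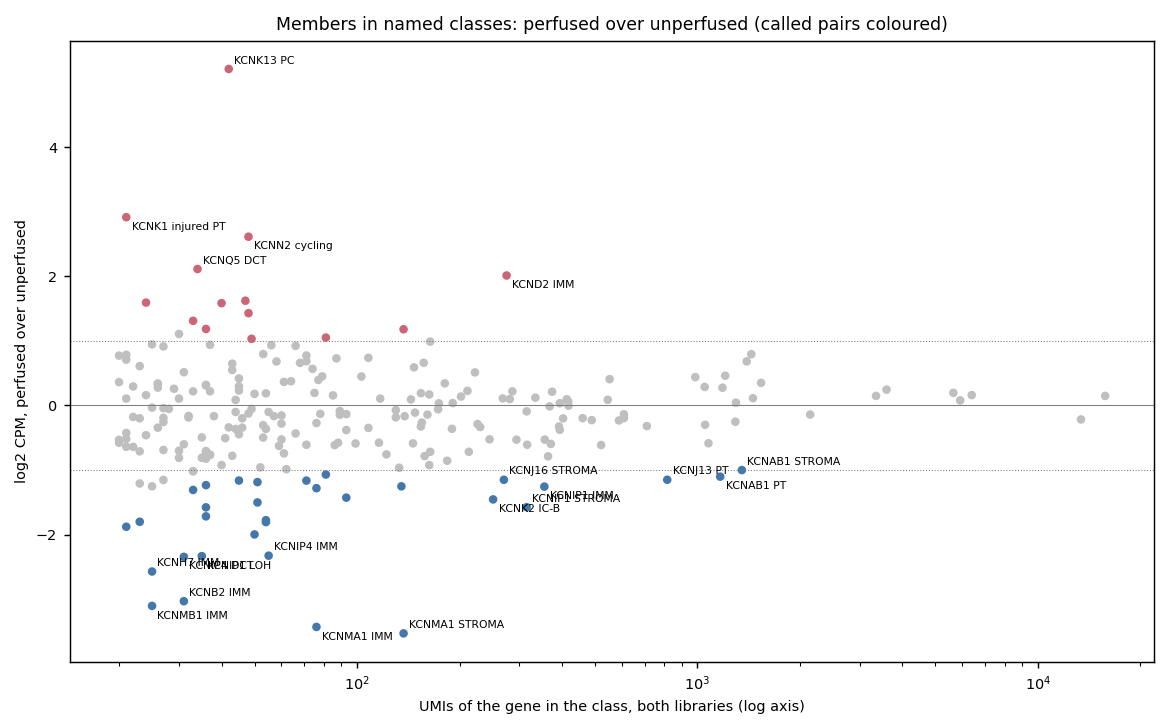
Log2 ratio of CPM, perfused over unperfused, of each member in each named class with at least 20 UMIs (245 points), against its UMIs in both libraries on a log axis. Points called higher are red and points called lower are blue, and dotted lines mark a 2-fold difference. The points with over 2000 UMIs lie near 0, and the highest ratio, 5.21 for KCNK13 in PC, rests on 1 and 41 UMIs.

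In STROMA, 2 of 36 members were called higher (4.77% of all genes were) and 7 lower (7.03% of all genes). The lowest ratio was that of KCNMA1, with 118 UMIs (94.1 CPM) before and 19 UMIs (8.16 CPM) after perfusion, which gives a log2 ratio of -3.53 (-4.31 to -2.82). Most of it lay in subcluster 3, which had 57 and 56 nuclei in the libraries, where KCNMA1 had 81 UMIs (600.2 CPM) and 3 UMIs (15.01 CPM), or -5.32 (-7.63 to -3.72) on the log2 scale. The other channels of subcluster 3 did not share that difference. KCNB2 had a log2 ratio of 0.40 (0.08 to 0.73), KCNQ5 of -0.68 (-1.02 to -0.35) and KCNAB1 of -0.96 (-1.15 to -0.77). In IC-A, where KCNMA1 was highest, its log2 ratio was 0.24.

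KCNAB1 and KCNIP1 were also called lower in STROMA. KCNAB1 had 700 and 650 UMIs (558 and 279 CPM), with a log2 ratio of -1.0003 (-1.16 to -0.84). KCNIP1 had 194 and 121 UMIs (155 and 51.9 CPM), with a log2 ratio of -1.57 (-1.91 to -1.24). Of the 194 unperfused KCNIP1 UMIs, 138 lay in the fibroblast subcluster, and with the 7 subclusters of at least 10 nuclei in each library weighted equally its log2 ratio was 0.50. The ratio of KCNAB1, at the 2-fold limit, was -0.13 without nuclei that held a marker of another lineage. KCNT2, a sodium-activated channel, had 23 and 13 UMIs (-1.72).

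The other 3 members called lower in STROMA were the tubule channels KCNJ16 (147 and 123 UMIs, -1.15), KCNK5 (55 and 38 UMIs, -1.43) and KCNJ1 (15 and 8 UMIs, -1.80). Free RNA was estimated at 27.4% of unperfused and 15.3% of perfused UMIs of STROMA, and the subclusters of STROMA named PT and LOH held 18 and 15 unperfused nuclei against 4 and 7 perfused nuclei. Without those subclusters the log2 ratios were 0.11 for KCNJ16, -0.15 for KCNK5 and -0.41 for KCNJ1. The 2 members called higher, KCNAB2 (8 and 40 UMIs, 1.43) and KCNK13 (7 and 40 UMIs, 1.62), lay mostly in subcluster 0, led by BANK1 and LRRC3B with immune genes such as FYB1 and INPP5D, which held 67 and 165 nuclei. In subcluster 0 KCNAB2 had 21.6 and 26.1 CPM and KCNK13 18.0 and 33.8 CPM. With subclusters weighted equally, the ratio of KCNK13 was -0.49.

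In EC, 3 of 27 members were called higher (0.765% of all genes) and 3 lower (5.06% of all genes). KCNMA1 was lower as in STROMA, with 44 UMIs (16.6 CPM) and 10 UMIs (4.86 CPM), a log2 ratio of -1.78 (-2.93 to -0.76). KCNB2 had 38 and 13 UMIs (-1.19) and KCNRG, which regulates channel assembly and overlaps TRIM13 in the RefSeq table, 40 and 11 UMIs (-1.50). The abundant endothelial channels were not called, since KCNN2 had 299 and 323 CPM and KCNN3 52.2 and 42.75 CPM. Higher were KCNIP2 (31 and 50 UMIs, 1.05), KCNAB2 (13 and 23 UMIs, 1.18) and KCNIP1 (12 and 28 UMIs, 1.58), and 14 of the 28 perfused KCNIP1 UMIs were in 1 nucleus, without which, and without its richest unperfused counterpart, the log2 ratio was 0.85.

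In LOH, no member was called higher (0.535% of all genes) and 4 of 36 lower (6.07% of all genes). KCNJ9 had 83 UMIs (25.0 CPM) and 52 UMIs (10.51 CPM), a log2 ratio of -1.25 (-1.78 to -0.73). KCNK9 had 27 and 18 UMIs (-1.16), KCNQ3 24 and 12 UMIs (-1.58) and KCNIP1 27 and 8 UMIs (-2.33), of which 11 unperfused UMIs were in 1 nucleus. With doublets kept, the ratio of KCNIP1 was -0.42.

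In PT, none of 32 members was called higher (0.705% of all genes) and 2 lower (8.61% of all genes), a share no larger than that of all genes. The counts of these 2 were among the largest of any called member. KCNAB1 had 845 UMIs (83.5 CPM) and 321 UMIs (38.9 CPM), or -1.10 (-1.29 to -0.91) on the log2 scale, and was lower in both PT clusters (-0.98 in cluster 1 and -1.41 in cluster 3). KCNJ13 had 596 UMIs (58.9 CPM) and 219 UMIs (26.5 CPM), or -1.15 (-1.38 to -0.92) on the log2 scale. The ratio of KCNAB1 was under the 2-fold limit in some alternatives, at -0.85 with nuclei thinned to 1000 UMIs and -0.87 without nuclei that held another lineage's marker. The abundant PT members differed little, with log2 ratios of 0.15 for KCNJ16, -0.22 for KCNJ15 and 0.08 for KCNK5. Free RNA was 8.75% of unperfused and 4.59% of perfused PT UMIs, and with it subtracted the log2 ratios were -1.12 for KCNAB1 and -1.17 for KCNJ13.

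In PC, 2 of 14 members were called higher (2.84% of all genes) and 2 lower (7.98% of all genes). In IC-A, none of 15 was higher (1.54% of all genes) and 1 lower (5.35% of all genes), and in IC-B none of 15 was higher (1.61% of all genes) and 1 lower (4.33% of all genes). The single calls in IC-A and IC-B are near the shares of all genes. KCNK2, the IC-B member, had 199 UMIs in 112 unperfused and 52 UMIs in 60 perfused nuclei, a log2 ratio of -1.45 (-1.92 to -1.01), with at most 10 and 8 UMIs in 1 nucleus. KCNJ5 in PC had 41 and 13 UMIs (-1.81) and KCNAB1 in PC 53 and 28 UMIs (-1.07), or 0.18 on the log2 scale without nuclei that held another lineage's marker. KCND2 in PC had 15 and 34 UMIs (1.03). KCNK13 in PC had the largest ratio of all, with 1 UMI and 41 UMIs (5.21, interval 2.65 to 10.55), but 23 of the 41 were in 1 nucleus. Without the richest nucleus of each library KCNK13 had 0 and 18 UMIs, a log2 ratio of at least 2.44 with the 0 set to 3 counts.

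No member of 4 was called in PODO, where 1.99% of all genes were higher and 4.18% lower. In DCT, 1 of 17 members was called higher (1.02% of all genes) and 1 lower (4.31% of all genes). KCNQ5 had 8 and 26 UMIs (2.11), 24 of the 26 in 1 nucleus, and KCNIP4 27 and 4 UMIs (-2.34). In injured PT, 3 of 14 members were called higher (2.55% of all genes) and 1 lower (3.57% of all genes). KCNK1 had 2 and 19 UMIs (2.91, interval 0.86 to 6.06), KCNK13 5 and 19 (1.59), KCNJ3 8 and 25 (1.31) and KCNQ5 38 and 12 (-1.997). The cycling class held 36 and 16 nuclei, and 2 of its 6 members were called higher (8.76% of all genes) and 2 lower (8.13% of all genes). They were KCNN2 (11 and 37 UMIs, 2.61), KCND2 (61 and 76, 1.18), KCNJ15 (27 and 6, -1.31) and KCNJ16 (57 and 14, -1.16). Without the richest nucleus of each library KCND2 in cycling cells was -1.995.

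In IMM, 1 of 29 members was called higher (2.06% of all genes) and 8 lower (4.85% of all genes). KCND2 was higher with 19 UMIs (35.7 CPM) and 256 UMIs (144 CPM), a log2 ratio of 2.01 (1.34 to 2.77). Of the 256, 120 lay in the subcluster named STROMA and 79 in subcluster 0, led by IGFBP2, KCND2 and COL18A1, which had 42 unperfused and 272 perfused nuclei. The 8 called lower included KCNMA1 (58 and 18 UMIs, -3.43), KCNIP1 (148 and 207 UMIs, -1.26), KCNIP4 (33 and 22, -2.33), KCNJ13 (32 and 44, -1.28), KCNB2 (22 and 9, -3.03), KCNMB1 (18 and 7, -3.10) and KCNH7 (16 and 9, -2.57). At a clustering resolution of 1.0 the ratio of KCNIP1 was -0.29, and in the macrophage subcluster KCNIP1 had 35 UMIs (495 CPM) and 76 UMIs (721 CPM). KCNMA1 was thus called lower in STROMA, EC and IMM, and free RNA was estimated at 29.8% of unperfused and 27.9% of perfused IMM UMIs.

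In the unnamed cluster 5, KCNJ1 had 187 UMIs (83.4 CPM) and 51 UMIs (35.9 CPM), a log2 ratio of -1.22 (-1.69 to -0.76), in 140 and 42 nuclei. KCNMA1 there had 37 and 49 UMIs (1.06), of which 25 perfused UMIs were in 1 nucleus. The ratio of KCNJ1 was also below 0, but under the 2-fold threshold, in LOH and DCT.

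Of 25 kidney potassium channels and subunits with a known role, 126 pairs with a named class had enough UMIs, and 6 were called higher and 16 lower, where 2.03% of the pairs of all genes were higher and 5.89% lower. For 12 partner subunits with other symbols, 0 of 49 pairs were higher and 7 lower. DPP6 and DPP10, which join Kv4-type channels, were lower in STROMA (28 and 10 UMIs, -2.38, and 25 and 19 UMIs, -1.29) and in IMM (18 and 7 UMIs, -3.10, and 20 and 18 UMIs, -1.89). AMIGO1, a partner of Kv2-type channels such as KCNB2, was lower in PT, STROMA and IMM, with 89 and 35 UMIs in PT (-1.05). For 24 other genes of potassium handling (pumps, cotransporters, the epithelial sodium channel and their regulators), 3 of 206 pairs were higher and 24 lower. Of these, KLHL3, which targets WNK kinases for degradation, had 169 and 87 UMIs in PC (-1.11). SLC12A1, the cotransporter of the thick ascending limb, had 118 and 360 UMIs in IC-A (2.18). Free RNA was estimated at 8.30% and 11.8% in IC-A, but SLC12A1 is among the genes behind that estimate. The estimate is thus not independent of the level of SLC12A1.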

How the data were processed

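Nuclei from unperfused and perfused pig renal cortex were sequenced as 2 libraries with a 10x Genomics droplet kit. The authors aligned the reads with Cell Ranger 5.0.1 to a pig genome and annotation from Ensembl, including introns, and deposited the resulting UMI counts, which are not normalized. They held 34415254 and 35525592 UMIs in 7179 and 6205 barcodes, from before the filters on nuclei.

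Barcodes were left out under 500 or over 6000 genes, over 7% mitochondrial UMIs, or as doublets by Scrublet (scanpy 1.11.5; 641 and 489 barcodes). Libraries were integrated and clustered in Seurat 5.3.0 (R 4.3.3) at a resolution of 0.5, without KCN and partner genes. A cluster was named from marker lists if at least 3 markers counted and, among its 10 leading genes, those of other lists did not outnumber those of its own list. UMIs were summed by class and library, with exact Poisson intervals and exact conditional binomial intervals of the ratio. The call rule was tested on simulated data. Free RNA was estimated from tubule genes (LRP2, CUBN, SLC12A1 and UMOD). The study's removal of free RNA with SoupX was not used here. KCNE1, KCNH1 and KCNMB2, which the files give by identifier only, are not members.

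The members and lists were chosen with earlier results of these data known. Named genes were those with a leading class, those called in a named class, a list of kidney channels with a known role and the 5 with most UMIs. KCNE3, the overlapping genes, the members at the UMI minimum and the values by cluster and subcluster were chosen after their values were seen. Alternatives were 17 chosen with the design, among them scaling by edgeR 4.0.16 TMM and DESeq2 1.42.0 factors, and 4 added after seeing the data. Values of a few items are not reported here. No sequences or positions were used, and RefSeq (Sscrofa11.1, 68 of 69 members matched by symbol) gave only neighbours and overlaps.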

Additional observations from a re-analysis of the deposited data

Results flagged for a closer look

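KCNIP1 differed in direction between classes. Perfused against unperfused, its log2 ratio was 1.58 in EC, but -1.26 in IMM, -2.33 in LOH and -1.57 in STROMA, each called on its own. KCNQ5 had a log2 ratio of 2.11 in DCT and -1.997 in injured PT. With 1 library per condition, the difference between classes was not tested. The EC value of KCNIP1 and the DCT value of KCNQ5 rested on 28 and 26 perfused UMIs, of which 14 and 24 were in 1 nucleus. The lower values of KCNIP1 also depended on the processing, as given above. Its STROMA ratio changed sign with subclusters weighted equally. Its ratio fell under the 2-fold limit in IMM at a resolution of 1.0 and in LOH with doublets kept.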

How the results depend on the processing

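Pairs of a member and a named class called higher and lower in the perfused library numbered 14 and 32. With doublets kept, 8 were called higher. With nuclei thinned to 1000 UMIs, 2 were higher and 10 lower. Without nuclei that held another lineage's marker, which left 69 pairs, 5 were higher and 5 lower, and with a minimum of 50 UMIs 3 were higher and 20 lower. The share of calls that were lower was 69.6%, against 82.6% with doublets kept, 83.3% thinned, 87.0% with the higher minimum and an even split without nuclei of another lineage's marker. Lower calls were also the majority over all genes in the main setting, with 2384 pairs higher and 6938 lower. Counts over all genes under the alternatives are not given here, so these shifts cannot be read as particular to the members. The 9 members with a leading class became 15 at a resolution of 0.3, 5 with thinning and 16 with a ratio of 2. Of the log2 ratios followed under the alternatives, 519 moved little, 72 moved and 9 reversed. In STROMA the reversed ratios were KCNJ16 at 0.087 with doublets kept, 0.30 with subclusters weighted equally and 0.11 without the subclusters named PT or LOH, KCNK5 at 0.17 with doublets kept, KCNJ1 at 0.46 with thinning, and KCNIP1 at 0.50 and KCNK13 at -0.49 with subclusters weighted equally. The rest were KCNAB1 in PC at 0.18 without nuclei of another lineage's marker and KCND2 in cycling cells at -1.995 without the richest nucleus of each library. Thinning and the removal of nuclei leave fewer UMIs, and the cause of the other moves was not tested. Scaling by TMM or DESeq2 factors shifted all genes by at most 0.12 on the log2 scale, in EC. The 4 alternatives on the makeup of IMM and STROMA and on unnamed clusters were chosen after seeing the data. No paired analysis was possible because each condition is 1 library, and for the same reason no replicate could be left out. Where an alternative left a count of 0 in 1 library, the ratio is a bound with the 0 set to 3 counts, and KCNIP4 in DCT, thinned, gave no value for that reason. Several small classes gave no value once nuclei of another lineage's marker were removed, and IMM gave none at a resolution of 0.3 or without integration.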
